A study of Mus musculus with 36 samples.

Results

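The genes described here are 8 clade B serpins of the mouse (Serpinb9b, Serpinb9, Serpinb1a, Serpinb6a, Serpinb6b, Serpinb5, Serpinb8 and Serpinb2), out of 52636 genes counted in RNA from jejunal organoids. The symbols came from a list, and each was matched to its Ensembl identifier in the deposited counts. Serpinb9b was chosen by its measured fall with anti-Ptk7, an antibody against the receptor Ptk7, so that fall is given as a description with no test. A gene under 0.5 mean CPM (counts relative to the library total, scaled by TMM between libraries) was taken as not detected, which left 5 detected members and 3 that were not.

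Clade B serpins are mostly intracellular protease inhibitors. A serpin presents a reactive loop as bait, the protease cuts it, and the serpin then changes shape and traps the enzyme in a covalent complex. In epithelia and leukocytes these proteins are known for restraining granule and lysosomal proteases that reach the cytosol, although Serpinb5 (maspin) is a family member without classical inhibitory activity.

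Organoids were grown from crypts of the jejunum of C57BL/6 mice, and 36 libraries were made, 6 for each of 6 groups. Complete media + IgG was the reference. QCM had been conditioned by quiescent mouse embryonic fibroblasts and SCM by senescent ones, and both were given with the control antibody IgG. SCM + anti-Ptk7 received the same senescent medium with the antibody against Ptk7. Wnt5a + IgG and Wnt5a + anti-Ptk7 were complete media to which the ligand Wnt5a was added. Every culture therefore received either IgG or anti-Ptk7, and complete media with anti-Ptk7 was not analysed here, so what the antibody does without SCM or Wnt5a cannot be given. The conditioned media are mixtures from other cells, the organoids hold several epithelial cell types, and the replicates carry the numbers 1 to 6 in every group, as do the 6 mice named as the origin of the crypts, without a statement of which number is which mouse.

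The libraries held between 9581589 and 21029769 counts (median 13490071). All 7 epithelial markers examined (Epcam, Cdh1, Vil1, Krt8, Krt18, Krt19 and Cdx2) were tested and well above the detection limit. Of 9 markers of T and NK cells, the cells best known for granzymes, all 9 were under 0.5 mean CPM and Cd8a, Prf1 and Gzmb were at 0 in every library. Of 5 mast cell markers, 4 were under 0.5 mean CPM, with Cpa3 and Fcer1a at 0 in every library, and the summed level, led by Kit, had group medians from 15.04 CPM (SCM + anti-Ptk7) to 24.6 CPM (QCM). Of 5 myeloid markers, 2 were under 0.5 mean CPM, with Adgre1 at 0 in every library, and the sum, led by Csf1r and Cd68, had medians from 14.4 CPM (QCM) to 19.2 CPM (Wnt5a + anti-Ptk7). Of 6 fibroblast markers, 5 were under 0.5 mean CPM, with Col3a1 and Dcn at 0 in every library, and the sum, led by Pdgfrb, had medians from 0.957 CPM (SCM + IgG) to 4.43 CPM (SCM + anti-Ptk7). The part of these lists in the members' levels was not tested. The library SCM + IgG replicate 1, and libraries with the number 1 in general, stood apart for the members, as described below.

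Of the members, 5 lie on chromosome 13 and 3 on chromosome 1 (GRCm38), the chromosomes that hold the 28 clade B genes of the annotation, 16 on the former and 12 on the latter. Serpinb1a (13:32842092-32851185, minus strand), Serpinb6b (13:32965209-32979067, plus), Serpinb9 (13:33003250-33017957, plus) and Serpinb9b (13:33027416-33041884, plus) lie towards the start of the cluster on chromosome 13. Serpinb1-ps1 and Serpinb1c lie between Serpinb1a and Serpinb6b, and 9458 bases separate the end of Serpinb9 from the start of Serpinb9b. Serpinb6a (13:33917918-34002794, minus) lies at the other end of that cluster. Serpinb5 (1:106861173-106883348, plus), Serpinb2 (1:107511423-107535478, plus) and Serpinb8 (1:107590006-107610484, plus) lie together on chromosome 1.

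Serpinb9b and Serpinb9 are close copies, so the stretch around the longest run that they share is shown first. Their coding sequences were identical at 85.7% of 1133 aligned positions, the highest value among the 28 pairs of members, and Serpinb6a and Serpinb6b followed at 81.9%. The longest run that both copies share is 62 bases long. It is printed here with 40 bases on either side (coding bases 221 to 362 in both genes), with the 10 positions that differ in capitals. In Serpinb9b this stretch covers exon 3 (13:33032968-33033053) and exon 4 (13:33033527-33033582), and in Serpinb9 it covers exon 3 (13:33008058-33008143) and exon 4 (13:33008768-33008823).
Serpinb9b: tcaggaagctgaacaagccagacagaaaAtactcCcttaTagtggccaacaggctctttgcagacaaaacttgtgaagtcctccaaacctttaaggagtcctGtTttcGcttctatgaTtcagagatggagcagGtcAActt
Serpinb9: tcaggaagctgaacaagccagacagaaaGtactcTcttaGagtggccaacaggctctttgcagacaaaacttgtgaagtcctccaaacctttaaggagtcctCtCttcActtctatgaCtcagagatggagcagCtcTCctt
Only 13 of the 1073 coding windows of 50 bases in Serpinb9 (1.21%) occurred in a transcript of another gene, all 13 in Serpinb9b, so most reads of a length of 50 or more bases can tell the copies apart. In Serpinb1a the share was 5.79%, in Serpinb6a 4.18%, and in Serpinb5 0 of 1076 windows were shared.

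Serpinb9b itself shared 180 of 1082 windows (16.6%), of which 164 were with Gm36099. This gene is annotated as antisense, lies inside Serpinb9b on the opposite strand (13:33031202-33034560) and covers 256 of the 1131 coding bases of Serpinb9b (22.6%), including the stretch printed above. The library kit, which amplifies full-length cDNA and cuts it with a transposase, does not mark the strand, and the counting is not stated to use it, so reads from these exons cannot be told apart between the 2 genes. A smaller overlap, of 53 coding bases (4.43%), exists between Serpinb6a and the antisense gene 1110046J04Rik.

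The 250 bases before a RefSeq start are shown for 4 detected members, the 2 close copies and 2 members that rose with SCM and Wnt5a, since the study concerns YAP and TEAD, a transcription co-factor and its DNA-binding partners. RefSeq sequences (GRCm38.p6) were found for 7 of the 8 members. The motifs searched on both strands were GGAATG, a core of TEAD sites that reads CATTCC on the other strand, and TGANTCA, a core of AP-1 sites, which reads the same on both strands. The motifs do not overlap each other in these windows, and matches are in capitals.
Serpinb9b, chr13:33027164-33027413, plus strand: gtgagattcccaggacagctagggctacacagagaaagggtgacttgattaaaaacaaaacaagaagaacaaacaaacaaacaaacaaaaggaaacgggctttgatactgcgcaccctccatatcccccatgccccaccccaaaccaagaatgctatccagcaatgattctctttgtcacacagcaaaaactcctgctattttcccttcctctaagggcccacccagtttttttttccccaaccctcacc
Serpinb9, chr13:33004291-33004540, plus strand: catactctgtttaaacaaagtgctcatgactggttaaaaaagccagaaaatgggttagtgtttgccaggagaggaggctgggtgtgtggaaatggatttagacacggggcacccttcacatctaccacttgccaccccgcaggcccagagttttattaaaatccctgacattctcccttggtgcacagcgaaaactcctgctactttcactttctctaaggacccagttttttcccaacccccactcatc
Serpinb5, chr1:106860925-106861174, plus strand: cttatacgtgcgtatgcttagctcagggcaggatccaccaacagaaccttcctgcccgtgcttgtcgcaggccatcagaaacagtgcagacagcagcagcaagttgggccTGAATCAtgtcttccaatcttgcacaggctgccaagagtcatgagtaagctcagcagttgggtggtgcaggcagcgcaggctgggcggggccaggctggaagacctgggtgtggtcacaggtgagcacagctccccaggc
Serpinb6a, chr13:34002795-34003044, minus strand: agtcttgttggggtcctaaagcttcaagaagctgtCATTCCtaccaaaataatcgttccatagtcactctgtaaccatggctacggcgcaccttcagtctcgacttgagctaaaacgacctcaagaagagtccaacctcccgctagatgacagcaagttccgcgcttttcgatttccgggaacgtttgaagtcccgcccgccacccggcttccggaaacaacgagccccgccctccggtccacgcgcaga
The window of Serpinb9 lies inside the gene as placed above (its position there begins at 33003250), so it is not upstream of the start given there. A further RefSeq entry of Serpinb6a (13:33936084-33936333, minus strand), which lies inside Serpinb6a, holds 0 matches of either motif. The Serpinb5 window holds 1 AP-1 match and the Serpinb6a window 1 TEAD match, while these letters do not occur in the windows of Serpinb9b and Serpinb9. Among the members that were not detected, the Serpinb8 window and both overlapping Serpinb2 windows each hold 1 AP-1 match. The Serpinb6b window holds 0 matches of either motif. Over all 32851 windows of this length, 12.6% held the TEAD letters and 6.75% the AP-1 letters, so these matches are a description of the sequence and nothing more.

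The detected members covered a wide range of abundance. Per kilobase of coding sequence, the mean level over the 36 libraries was 349 CPM for Serpinb1a, an inhibitor of neutrophil elastase and cathepsin G, 172 CPM for Serpinb6a, which inhibits cathepsin G, and 120 CPM for Serpinb5. It was 9.41 CPM for Serpinb9b and 2.43 CPM for Serpinb9, the inhibitor of granzyme B. The 3 members that were not detected were Serpinb6b at a mean of 0.118 CPM (54 counts in 15 libraries), the furin inhibitor Serpinb8 at 0.0650 CPM (31 counts in 9 libraries) and the urokinase inhibitor Serpinb2, which had 0 counts in all 36 libraries. A count of 0 allows 3 counts, which is a level of up to 0.143 CPM in the deepest and 0.313 CPM in the shallowest library. The members nearest to the detection limit were Serpinb9 at 2.72 CPM inside it and Serpinb6b outside it. Of the 20 clade B genes that are no members, none reached the limit (the highest was Serpinb6c, at 0.314 CPM), and 14 of the 28 clade B genes had no count at all.

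**Figure D1:**
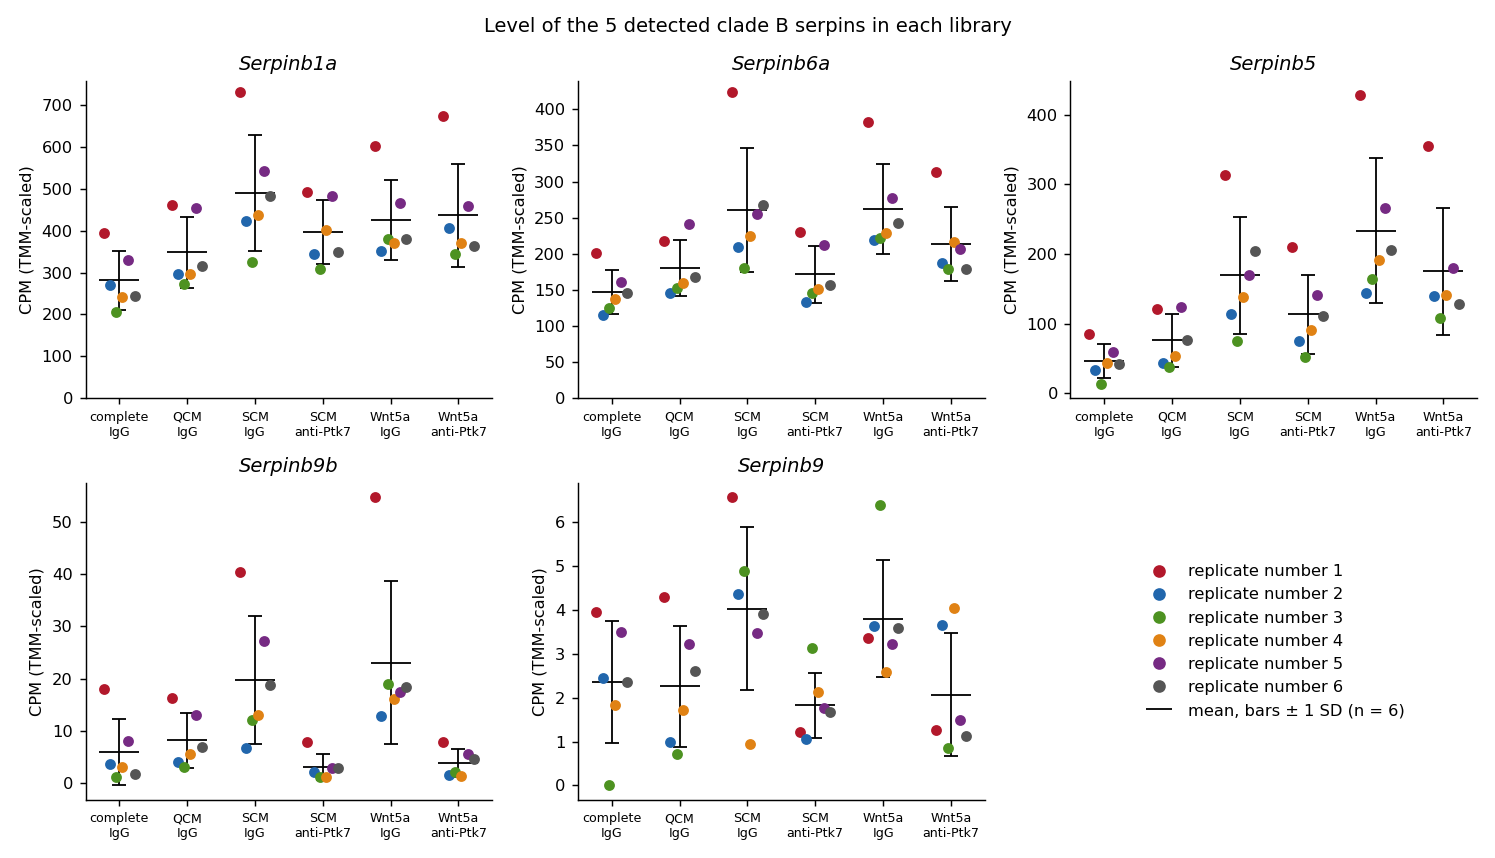
CPM of the 5 detected members (vertical axis, linear, scaled by TMM) in the 6 libraries of each group (horizontal axis), coloured by replicate number, with the mean and SD of each group in black. Serpinb5 ranged from 13.8 CPM in a complete media library to 427 CPM in a Wnt5a + IgG library, and the library with number 1 was the highest of its group for Serpinb1a and Serpinb9b in all 6 groups.

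The first question was what the media did to the members without anti-Ptk7. Serpinb1a, Serpinb6a and Serpinb5 rose in SCM and in Wnt5a against complete media, by 1.74-, 1.77- and 3.68-fold in SCM and by 1.51-, 1.78- and 5.08-fold in Wnt5a. In QCM no member passed the edgeR test without the replicate block, and Serpinb5 was called with it. Genes were tested with edgeR's quasi-likelihood test over 15497 genes in a model of all 36 libraries, and a call needed a fold change over 1.5 as well as a Benjamini-Hochberg adjusted p under 0.05. In bulk RNA a lower or higher level can come from fewer or more cells of a type or from less or more RNA per cell, which cannot be told apart.

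Of the 7 members other than Serpinb9b, 4 could be tested. In SCM against complete media, 3 of the 4 were called higher, where 4.96% of all genes tested were called higher and 6.08% in either direction. In Wnt5a against complete media, again 3 of the 4 were called higher, beside 8.29% of all genes (10.2% in either direction). In QCM against complete media 0 of 4 were called with edgeR, where 0.374% of genes were called in either direction, and 0 of 4 had an unadjusted p under 0.05. DESeq2 and voom with limma also called 0 members in QCM.

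Serpinb5 showed the widest fold range between groups among the 4 tested members. In complete media the lowest, median and highest library were at 13.8, 42.4 and 85.5 CPM, in QCM at 37.2, 64.8 and 123 CPM, in SCM at 74.9, 154 and 313 CPM, and in Wnt5a at 144, 199 and 427 CPM. Every Wnt5a library lay above every complete media library, whereas the lowest SCM library overlapped with complete media. The log2 fold change against complete media was 1.88 ± 0.39 (SE) in SCM (edgeR adjusted p = 0.00123) and 2.34 ± 0.40 in Wnt5a (adjusted p = 5.35e-05), and it was higher in 6 of 6 replicate numbers in both. In QCM it was 0.73 ± 0.38 (adjusted p = 0.458) and was not called. Blocking on the replicate number gave 0.75 ± 0.14 in QCM, which was called (adjusted p = 0.00150, beside 1.15% of all genes with the block), with the QCM library higher in 6 of 6 numbers.

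Serpinb1a and Serpinb6a moved less and at a higher level. Serpinb1a ran from 206 to 396 CPM in complete media (median 256), from 325 to 732 in SCM (median 460) and from 352 to 603 in Wnt5a (median 380). Its SCM and complete media libraries overlapped, as did those of Wnt5a, but the SCM library was the higher in 6 of 6 numbers and so was the Wnt5a library. The log2 fold change was 0.80 ± 0.19 in SCM (edgeR adjusted p = 0.00352) and 0.60 ± 0.19 in Wnt5a (adjusted p = 0.0184). The call in Wnt5a lay close to the fold cutoff and was lost in 7 of the 36 fits that each left out 1 library, with a value of 0.47 without Wnt5a + IgG replicate 1, 0.51 to 0.57 without complete media replicate 2, 3, 4 or 6, 0.57 without Wnt5a + IgG replicate 5 and 0.58 without Wnt5a + anti-Ptk7 replicate 1.

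Serpinb6a lay between 115 and 200.4 CPM in complete media (median 141), between 181 and 424 in SCM (median 239) and between 219 and 382 in Wnt5a (median 235). The Wnt5a libraries did not overlap with those of complete media, and the SCM libraries did. The log2 fold change was 0.82 ± 0.18 in SCM (edgeR adjusted p = 0.00247) and 0.83 ± 0.18 in Wnt5a (adjusted p = 0.00117), again with the same direction in 6 of 6 numbers. The calls of Serpinb1a, Serpinb6a and Serpinb5 in SCM held without SCM + IgG replicate 1, at 0.65, 0.62 and 1.60 (edgeR adjusted p = 0.0251, 0.0223 and 0.00772). Serpinb1a and Serpinb6a had smaller values in QCM, 0.31 ± 0.19 (adjusted p = 0.521) and 0.29 ± 0.18 (adjusted p = 0.547).

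Serpinb9 was the tested member with no call in any of the 15 pairs of groups, also not in Wnt5a against QCM, where 9.34% of all genes were called. It ranged from 0 to 3.97 CPM in complete media (median 2.40), from 0.932 to 6.58 in SCM (median 4.15) and from 2.60 to 6.41 in Wnt5a (median 3.48). The groups overlapped, and counts per library ran from 0 to 101. Against complete media the difference was 0.79 ± 0.50 on the log2 scale in SCM (edgeR adjusted p = 0.348) and 0.70 ± 0.50 in Wnt5a (adjusted p = 0.351).

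Serpinb9b, which was chosen for its response to the antibody, is described by its levels. It lay between 1.25 and 17.9 CPM in complete media (median 3.41), between 3.19 and 16.2 in QCM (median 6.26), between 6.82 and 40.4 in SCM (median 15.9) and between 12.9 and 54.7 in Wnt5a (median 17.9). The SCM and Wnt5a libraries overlapped with complete media only through complete media replicates 1 and 5 (17.9 and 8.10 CPM), and at each of the 6 numbers the SCM and the Wnt5a library was the higher. The difference on the log2 scale was 1.75 ± 0.55 in SCM and 1.96 ± 0.55 in Wnt5a, and QCM, the comparison free of the choice, gave 0.47 ± 0.55 (edgeR adjusted p = 0.801). With 1 library left out these values ran from 1.40 to 2.47 in SCM, from 1.51 to 2.70 in Wnt5a and from 0.17 (without QCM replicate 1) to 1.17 in QCM, the highest value in each case being without complete media replicate 1.

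SCM was also compared with QCM, since fibroblasts conditioned both. None of the 4 tested members was called with edgeR (0.903% of all genes were), and DESeq2 and voom called 0. An unadjusted edgeR p under 0.05 was found for 3 of the 4, and for 2633 of the 15497 genes tested. Serpinb5 was 1.15 ± 0.38 higher on the log2 scale (edgeR adjusted p = 0.101), Serpinb6a 0.53 ± 0.18 (adjusted p = 0.121) and Serpinb1a 0.49 ± 0.19 (adjusted p = 0.157), each with the SCM library higher in 6 of 6 numbers. With the replicate block Serpinb5 was called, at 1.16 ± 0.14 (adjusted p = 5.89e-07, beside 3.2% of all genes with the block). The values of Serpinb6a and Serpinb1a stayed under the fold cutoff with the block. Serpinb9b differed by 1.27 ± 0.54 between SCM and QCM, as a description.

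**Figure D2:**
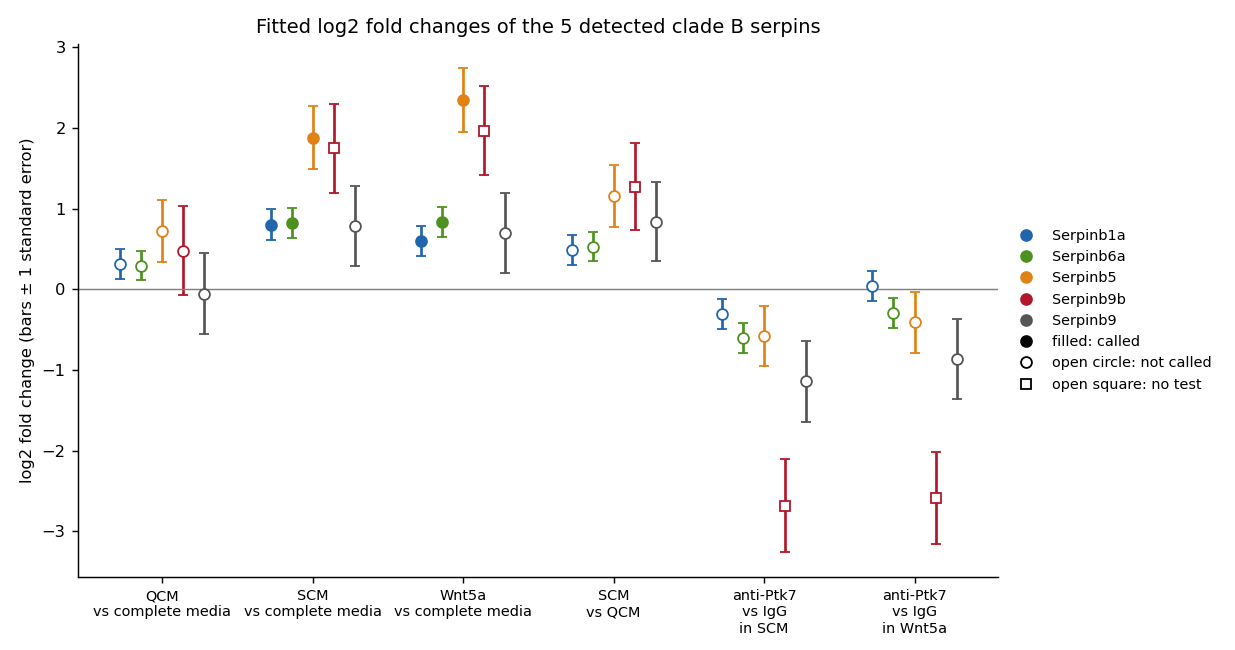
Log2 fold change (vertical axis) with its standard error for the 5 detected members in 6 comparisons (horizontal axis). Filled circles were called, open circles were not called, and open squares mark Serpinb9b, which has no test outside QCM against complete media; the values called are those of Serpinb1a, Serpinb6a and Serpinb5 in SCM and in Wnt5a, from 0.60 to 2.34.

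The second question was what anti-Ptk7 did within SCM and within Wnt5a. Serpinb9b, chosen for this fall, was 6.42-fold lower in SCM + anti-Ptk7 than in SCM + IgG and 5.99-fold lower in Wnt5a + anti-Ptk7 than in Wnt5a + IgG. No other member was called in either medium by edgeR without the block, while in SCM DESeq2 called Serpinb6a and the block called Serpinb5. All 4 values in SCM were below 0, as were 3 of the 4 in Wnt5a. The median over all genes tested was 0.0017 in SCM and 0.0067 in Wnt5a. The members share the same libraries and vary together, so these signs are not separate observations.

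The levels of Serpinb9b are given library by library. In SCM + IgG they were 40.4, 6.82, 12.2, 13.1, 27.2 and 18.7 CPM for numbers 1 to 6, and in SCM + anti-Ptk7 they were 7.88, 2.13, 1.28, 1.24, 2.85 and 2.98 CPM. In Wnt5a + IgG they were 54.7, 12.9, 18.98, 16.1, 17.4 and 18.3 CPM, and in Wnt5a + anti-Ptk7 they were 7.94, 1.64, 2.11, 1.30, 5.51 and 4.56 CPM. The antibody library was the lower in 6 of 6 numbers in both media, the Wnt5a groups did not overlap, and the SCM groups overlapped only because the number 1 library with antibody (7.88 CPM) lay above the number 2 library without it (6.82 CPM). On the log2 scale the difference was −2.68 ± 0.58 in SCM and −2.58 ± 0.57 in Wnt5a, and −2.34 in SCM without SCM + IgG replicate 1. Both antibody groups lay near or under the complete media group, at a mean of 3.06 ± 2.48 CPM (SD, n = 6) in SCM + anti-Ptk7 and 3.84 ± 2.62 in Wnt5a + anti-Ptk7, beside 5.97 ± 6.35 in complete media.

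Its close copy Serpinb9 was not called in either medium. In SCM + IgG the 6 libraries were at 6.58, 4.38, 4.90, 0.932, 3.49 and 3.92 CPM, and with anti-Ptk7 at 1.22, 1.07, 3.13, 2.12, 1.76 and 1.68 CPM. The groups overlapped through SCM + IgG replicate 4, the only number at which the antibody library was the higher. The log2 fold change was −1.14 ± 0.50 in SCM (edgeR adjusted p = 0.230) and −0.87 ± 0.50 in Wnt5a (adjusted p = 0.430, lower in 4 of 6 numbers).

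In SCM, 0 of the 4 tested members were called with anti-Ptk7 (1.23% of all genes were), while DESeq2 called 1 and voom 0. An unadjusted edgeR p under 0.05 was found for 2 of the 4, and for 2654 of the 15497 genes tested. Serpinb6a came closest. It ran from 133 to 230.4 CPM with the antibody (median 154) against 181 to 424 without it (median 239), which overlapped, and it was lower in 6 of 6 numbers. The log2 fold change was −0.60 ± 0.18 (edgeR adjusted p = 0.0642), DESeq2 gave −0.60 with an adjusted p of 0.0343 and called it, and the replicate block gave −0.58 ± 0.08, which lay just under the fold cutoff (adjusted p = 9.25e-06). Without SCM + IgG replicate 1 it was −0.41 (edgeR adjusted p = 0.280).

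Serpinb5 ran from 51.6 to 209 CPM with the antibody in SCM (median 101), below its IgG partner in 6 of 6 numbers but overlapping as a group. Its log2 fold change was −0.58 ± 0.38 (edgeR adjusted p = 0.454), and with the block it was −0.59 ± 0.14 and was called (adjusted p = 0.00692, beside 2.57% of all genes with the block). Without SCM + IgG replicate 1 it was −0.31 in the fit with no block (edgeR adjusted p = 0.799). For Serpinb1a the log2 fold change was −0.31 ± 0.19 (edgeR adjusted p = 0.414), lower in 6 of 6 numbers.

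In Wnt5a, 0 of 4 members were called with anti-Ptk7 by edgeR, DESeq2 or voom, beside 0.884% of all genes by edgeR, and 0 of 4 had an unadjusted p under 0.05. The log2 fold change was −0.41 ± 0.37 for Serpinb5 (edgeR adjusted p = 0.677), −0.29 ± 0.18 for Serpinb6a (adjusted p = 0.485) and 0.04 ± 0.18 for Serpinb1a (adjusted p = 0.954). Serpinb5 and Serpinb6a were lower in 6 of 6 numbers and Serpinb1a in 3 of 6. Whether the effect of the antibody differed between the media was tested as an interaction, and 0 of 4 members were called (edgeR, with 0 at an unadjusted p under 0.05 and 0 called by DESeq2 and voom), beside 0% of all genes. The differences, Wnt5a minus SCM, were 0.35 ± 0.26 for Serpinb1a, 0.31 ± 0.26 for Serpinb6a, 0.17 ± 0.53 for Serpinb5 and 0.27 ± 0.70 for Serpinb9. For Serpinb9b the difference was 0.10 ± 0.78, as a description.

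Against complete media, 1 of the 4 tested members was called in SCM + anti-Ptk7 and 2 of the 4 in Wnt5a + anti-Ptk7, each higher. Serpinb5 was 1.30 ± 0.39 higher on the log2 scale in SCM + anti-Ptk7 (edgeR adjusted p = 0.0224, beside 4.52% of all genes called higher and 5.86% in either direction) and 1.93 ± 0.39 in Wnt5a + anti-Ptk7 (adjusted p = 0.000236, beside 10.5% and 14.5%). Serpinb1a was 0.64 ± 0.19 higher in Wnt5a + anti-Ptk7 (adjusted p = 0.00805) and 0.50 ± 0.19 higher in SCM + anti-Ptk7, which was not called (adjusted p = 0.0760). Serpinb6a was not called in either group, at 0.22 ± 0.18 in SCM + anti-Ptk7 (edgeR adjusted p = 0.489) and 0.54 ± 0.18 in Wnt5a + anti-Ptk7 (adjusted p = 0.0231, under the fold cutoff). Serpinb9 was at −0.35 ± 0.51 and −0.17 ± 0.51 (edgeR adjusted p = 0.722 and 0.838). These comparisons share the complete media libraries with those above and are not independent of them.

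When the groups were ordered by mean CPM, no neighbours differed past the cutoffs for the 4 members tested in all pairs, in the fit without the replicate block, and neighbours were not tested for Serpinb9b. All 15 pairs were also fitted with the block, which added 5 calls, all of Serpinb5, and removed 0. Of these, 2 were between neighbours. They were complete media and QCM (0.75, edgeR adjusted p = 0.00150, beside 1.15% of all genes with the block) and SCM + IgG and SCM + anti-Ptk7 (−0.59, adjusted p = 0.00692, beside 2.57%). The others were SCM against QCM, given above, and SCM + anti-Ptk7 against Wnt5a + IgG (1.10 higher in the latter, adjusted p = 7.94e-07, beside 6.37% of all genes with the block) and against Wnt5a + anti-Ptk7 (0.67 higher in the latter, adjusted p = 0.00202, beside 3.22%). For Serpinb5 the order was complete media (46.0 CPM), QCM (75.9), SCM + anti-Ptk7 (113), SCM + IgG (169), Wnt5a + anti-Ptk7 (175) and Wnt5a + IgG (233). For Serpinb6a it was complete media (147), SCM + anti-Ptk7 (171), QCM (180), Wnt5a + anti-Ptk7 (214), SCM + IgG (260) and Wnt5a + IgG (262). For Serpinb1a it was complete media (281), QCM (349), SCM + anti-Ptk7 (397), Wnt5a + IgG (425), Wnt5a + anti-Ptk7 (437) and SCM + IgG (491). The lowest adjusted p between neighbours in these 3 orders was 0.298, between Wnt5a + anti-Ptk7 and SCM + IgG for Serpinb6a. Over all genes and without the block, 5.76% were called between those groups, 0.69% between Wnt5a + IgG and SCM + IgG, 4.44% between Wnt5a + IgG and SCM + anti-Ptk7, 3.05% between SCM + anti-Ptk7 and QCM, 14.7% between Wnt5a + anti-Ptk7 and QCM and 1.53% between both anti-Ptk7 groups. Serpinb9 was lowest in both antibody groups (1.83 and 2.07 CPM) and highest in SCM + IgG (4.03), and Serpinb9b had the same groups at its lower end.

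A further source of variation was the replicate number, which was examined after the data were seen. In a fit with the number as a block, its effect on the member was called for Serpinb5 (edgeR adjusted p = 4.13e-11), Serpinb1a (adjusted p = 5.59e-11) and Serpinb6a (adjusted p = 2.58e-09), where 13.5% of all genes were called at an adjusted p under 0.05. For Serpinb9 it was not called (adjusted p = 0.978), and Serpinb9b was not tested. The library with number 1 was the highest of its group in 6 of 6 groups for Serpinb9b and Serpinb1a and in 5 of 6 for Serpinb6a and Serpinb5. It lay above the group mean by 1.49 on the log2 scale for Serpinb9b, averaged over the groups, by 1.02 for Serpinb5 and by 0.52 for both Serpinb1a and Serpinb6a. Number 3 was the lowest in 5 of 6 groups for Serpinb1a and Serpinb5. Without the 6 libraries of number 1 the same 3 members were called in SCM and in Wnt5a, and 0 in the other comparisons, and the log2 difference of Serpinb9b with anti-Ptk7 was −2.92 in SCM and −2.45 in Wnt5a.

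**Figure D3:**
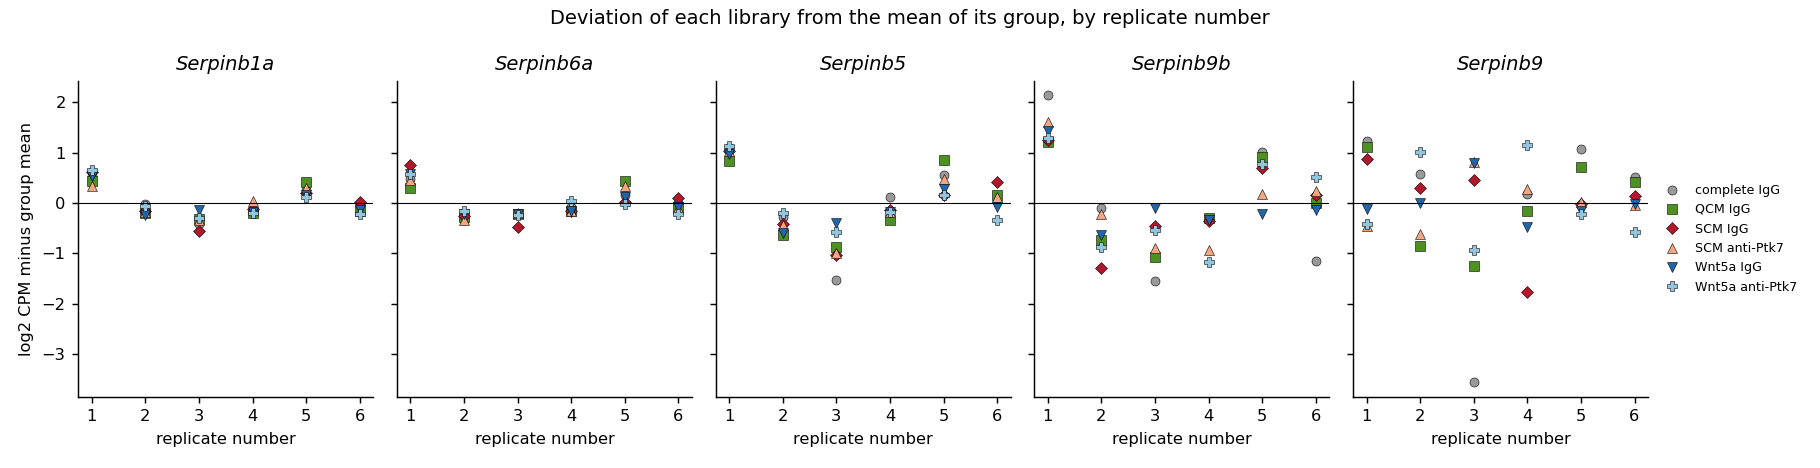
Log2 CPM of each library minus the mean of its group (vertical axis) against the replicate number (horizontal axis, labels without an order), with a symbol for each of the 6 groups. For Serpinb1a, Serpinb6a, Serpinb5 and Serpinb9b all 6 groups lay above 0 at number 1 and below 0 at number 2, while Serpinb9 had groups on both sides at every number.

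The members also varied together. Over the 36 libraries, which share the groups, the replicate numbers and the depth of each library, Pearson's r of log2 CPM was 0.901 between Serpinb1a and Serpinb5, 0.899 between Serpinb6a and Serpinb5 and 0.891 between Serpinb1a and Serpinb6a. Serpinb9b correlated with Serpinb6a at 0.766 and with Serpinb5 at 0.628, and once the group means were removed, r with Serpinb5 was 0.846. The correlation of Serpinb9 with the other 4 lay between 0.424 and 0.509.

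Among 13623 genes, the 3 most like Serpinb9b over the 36 libraries were Gm36099 (r = 0.945), Ly6a (r = 0.919), which encodes the surface antigen Sca-1, and Angptl4 (r = 0.863), a secreted inhibitor of lipoprotein lipase. Gm36099 is the antisense gene whose exons overlap Serpinb9b, and it held a median of 15.6 counts per 100 counts of Serpinb9b in a library (range 0 to 30.4). Its mean level (SD, n = 6) was 3.71 ± 2.53 CPM in SCM + IgG and 0.293 ± 0.470 in SCM + anti-Ptk7, beside 0.882 ± 0.819 in complete media. The SCM + anti-Ptk7 libraries of Gm36099 had a median of 0.103 CPM and a highest value of 1.22 CPM. Ly6a lies on chromosome 15 and ran at 129 ± 61.7 CPM in complete media, 257 ± 117 in SCM + IgG and 77.6 ± 35.4 in SCM + anti-Ptk7, with 235 ± 47.5 in Wnt5a + IgG and 80.7 ± 24.1 in Wnt5a + anti-Ptk7. The Wnt5a groups of Ly6a did not overlap (highest 129 CPM with the antibody, lowest 205 without it). These genes were picked for their correlation with Serpinb9b, which was itself chosen for its fall with the antibody, so their levels are a description.

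**Figure D4:**
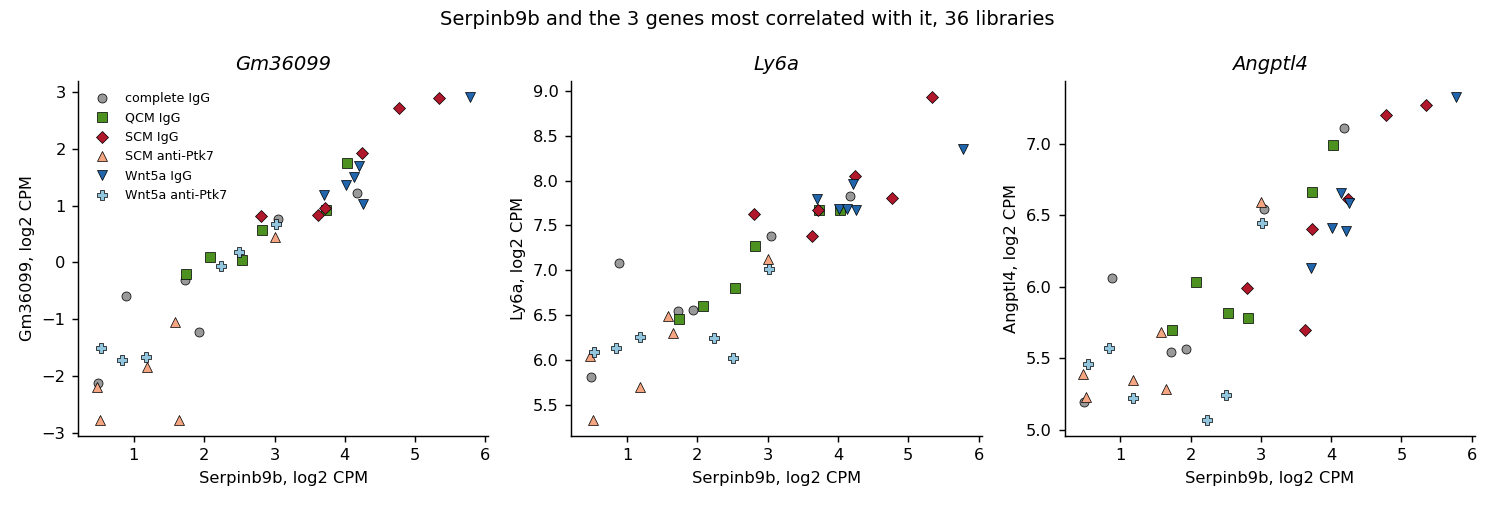
Log2 CPM of Gm36099, Ly6a and Angptl4 (vertical axes) against log2 CPM of Serpinb9b (horizontal axes) in 36 libraries, with a symbol for each group. Most anti-Ptk7 libraries lie to the lower left of the SCM + IgG and Wnt5a + IgG libraries, with some overlap, and the complete media libraries spread over much of both ranges, with r of 0.945, 0.919 and 0.863.

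For the other members, the most similar genes were Lgals3 (r = 0.983), Anxa10 (r = 0.978) and Anxa2 (r = 0.974) for Serpinb5, Plek2 (r = 0.963), Sdcbp2 (r = 0.957) and S100a16 (r = 0.954) for Serpinb1a, and Anxa1 (r = 0.944), Tagln2 (r = 0.939) and Pdcd6 (r = 0.939) for Serpinb6a. Lgals3 encodes galectin-3, and Anxa1, Anxa2 and Anxa10 encode annexins, which bind membranes in the presence of calcium. Lgals3, like Serpinb5, was lowest in complete media, at 248 ± 153 CPM, and had a mean of 1005 ± 583 in SCM + IgG and 1375 ± 734 in Wnt5a + IgG, values that are given without a test. For Serpinb9 the best value was 0.687, with Vgll3, and only 1 of its 3 genes was also among the 3 best by Spearman's rho.

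Proteases and their receptors and partners were examined as a list of 36 genes, of which 20 were tested. The list is not limited to enzymes that a serpin could trap. The receptors F2r and Plaur and the annexin Anxa2, called higher in SCM and in Wnt5a against complete media, are not proteases. In SCM against complete media 7 were called higher and 0 lower (4.96% and 1.12% of all genes), with a median log2 fold change of 0.43 beside 0.01 over all genes. In Wnt5a against complete media 9 were called higher and 0 lower (8.29% and 1.88%), with a median of 0.62 beside 0.01. There, 1 was called lower without Wnt5a + IgG replicate 4, Wnt5a + IgG replicate 6 or complete media replicate 2. In QCM 0 were called by edgeR (beside 0.374% of all genes) and voom, and 1 by DESeq2, which called 82 of the 15497 genes. Without complete media replicate 1, edgeR called 1, and the replicate block called 2, beside 1.15% of all genes with the block. SCM against QCM had 2 called higher (Ctsh and F2r, beside 0.761% of all genes). With the block 6 were called, beside 3.2% of all genes called in either direction with the block. Voom called 1, and 1 to 3 were called with 1 library left out, the 1 being without QCM replicate 3. With anti-Ptk7, 2 were called lower in SCM (F2r and Plat, beside 0.645%) and 1 with voom. The block called 4 lower, beside 2.57% of all genes called in either direction with the block (236 genes lower). In Wnt5a, 1 was called lower (Plat, beside 0.432%), and 2 with voom, and 0 were called higher. DESeq2, the block, and the fits without Wnt5a + IgG replicate 2 or Wnt5a + anti-Ptk7 replicate 1 each called 1 higher (Ctss, named after its values were seen). Over all genes tested, DESeq2 called 106 higher there and the block 131.

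Plat, which encodes tissue plasminogen activator, fell with anti-Ptk7 in both media. Its mean was 31.2 ± 9.22 CPM (SD, n = 6) in SCM + IgG and 8.27 ± 3.38 in SCM + anti-Ptk7, where the groups did not overlap, and 28.5 ± 6.76 in Wnt5a + IgG and 12.6 ± 5.83 in Wnt5a + anti-Ptk7, where they overlapped by less than 1 CPM. On the log2 scale the fall was −1.91 ± 0.28 in SCM (edgeR adjusted p = 0.000130) and −1.18 ± 0.27 in Wnt5a (adjusted p = 0.0131). Plaur, the receptor of urokinase, rose by 1.33 ± 0.37 on the log2 scale in SCM (adjusted p = 0.0154) and by 1.85 ± 0.37 in Wnt5a (adjusted p = 0.000444).

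F2r, a receptor that thrombin activates by cleavage, had 3 counts in the 6 complete media libraries together. It reached 2.75 ± 1.43 CPM in SCM + IgG and 11.04 ± 5.49 in Wnt5a + IgG, both called against complete media (edgeR adjusted p = 6.27e-05 and 1.36e-07), and 0.189 ± 0.251 in SCM + anti-Ptk7. The fall with the antibody in SCM was −3.72 ± 0.73 on the log2 scale (adjusted p = 0.00378), which voom with limma did not call (adjusted p = 0.0659). Ctsl, a lysosomal cysteine protease, rose by 1.04 ± 0.18 in SCM (adjusted p = 0.000208) and by 1.43 ± 0.19 in Wnt5a (adjusted p = 9.91e-07). Anxa2, which assembles plasminogen with its activators at the cell surface, rose by 1.63 ± 0.34 in SCM (adjusted p = 0.00116) and by 1.97 ± 0.34 in Wnt5a (adjusted p = 7.07e-05). Mcpt2, annotated as a mast cell protease, reached 3.53 ± 2.04 CPM in SCM and 10.9 ± 6.88 in Wnt5a from 0.144 ± 0.187 in complete media (edgeR adjusted p = 0.00121 and 8.86e-06; voom with limma lost the call in SCM). The 5 mast cell markers, of which Cpa3 and Fcer1a were at 0 in every library, summed to a median of 22.8 CPM in complete media (16.5 to 31.99), 16.2 in SCM + IgG (3.00 to 31.9) and 17.9 in Wnt5a + IgG (15.2 to 27.2), and their part in the level of Mcpt2 was not tested.

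Outside the members, serpins were sparse. Of 40 serpin genes of other clades, 8 reached 0.5 mean CPM, and 2 of the 8 tested were called higher in Wnt5a, beside 8.29% of all genes. Voom with limma called 1 of the 8, and 3 of 19 were called without the filter on low counts. Serpina9 went from 0.0174 to 1.11 ± 1.03 CPM (SD, n = 6) and Serpina1e from 0.0260 to 1.49 ± 1.64 CPM, with 1 and 2 counts in the complete media group. The Wnt5a + IgG libraries of Serpina1e ran from 0.329 to 4.72 CPM. In the other clade B serpins, 1 gene could be tested, Serpinb6c, which had 51 counts in 5 of 6 SCM + IgG libraries and 0 in SCM + anti-Ptk7. Taking 3 counts over the group as the floor, which covers counting error only, Serpinb6c was at least 16.4-fold lower. It was called by edgeR, beside 0.645% of all genes called lower, and not by voom with limma. In Wnt5a it had 28 counts with IgG and 8 with anti-Ptk7 and was not called (edgeR adjusted p = 0.507). Its mean of 0.314 CPM is under the detection limit. Serpinb6c shares coding windows with Serpinb6a and Serpinb6b, so its few counts are uncertain.

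Markers of other cell types were set beside these results. The summed level of 9 markers of stratified epithelium, where Serpinb5 is abundant in skin, had a median of 8.38 CPM in complete media, 12.7 in QCM, 24.6 in SCM + IgG, 8.23 in SCM + anti-Ptk7, 23.7 in Wnt5a + IgG and 10.6 in Wnt5a + anti-Ptk7. Lor, Tgm1 and Krt6a led this sum, 4 of the 9 were under 0.5 mean CPM, and Trp63, which defines the basal cells of such epithelia, was at 0 in every library. The summed level of the 7 epithelial markers, led by Krt19 and Krt18, had a median of 9224 CPM in complete media and 11044 in QCM. It was 15247 in SCM + IgG, 13322 in SCM + anti-Ptk7, 15565 in Wnt5a + IgG and 15964 in Wnt5a + anti-Ptk7. The part of these markers in the values of the members was not tested.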

How the data were processed

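RNA of 36 organoid libraries was analysed from the deposited counts. Per the labels and the study's methods, the authors made libraries with a Smart-Seq kit and Nextera XT, filtered and aligned reads with HTSeqGenie and GSNAP (version 2013-11-01, per the submitters' processing notes) to the mm10 build, and counted reads within coding sequences for each gene, without pooling replicates. The annotation and strand use of the counting are not given in the sources used here. A table of the whole series holds the same counts and was not used.

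Counts were scaled by TMM (factors 0.908 to 1.03) and genes were filtered with filterByExpr, which left 15497 genes. edgeR 4.0.16 in R 4.3.3 was fitted with 6 group means, and the quasi-likelihood test was adjusted by Benjamini-Hochberg over all genes tested. A call needed a fold change over 1.5 as well as an adjusted p under 0.05. Standard errors were derived from the log2 fold change and its F statistic. Log2 CPM values used a prior count of 2. The fit was tested on simulated data. Alternatives were RLE size factors, DESeq2 1.42.0, voom with limma 3.58.1 on quantile-normalized values, no filter, the replicate number as a block, and leaving out each library. Leaving out all libraries of number 1, the block over all pairs of groups, the test of the number and the floor of Serpinb6c were added after the data were seen.

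The members and lists were chosen with earlier results of these data known. Beside the members, the text names up to 6 called genes of each list by the size of their change and the 3 genes most correlated with each member, and Ctsh and Ctss, which were named after their values were seen. The replicate numbers match the numbering of the 6 mice in the design text, and were taken to pair libraries on that ground. Deviations from the group means correlated at a mean of 0.0920 between libraries of the same number (34 of 90 pairs over 0.1) and −0.018 between different numbers. Most of these pairs came from number 1 (15 of 15 over 0.1) and number 3 (11 of 15). Numbers 2, 4, 5 and 6 had 3, 0, 3 and 2 of 15. Gene positions, coding sequences and overlaps came from GENCODE (GRCm38), and upstream sequences from RefSeq (GRCm38.p6). The floors cover counting error only, while the SDs and standard errors also hold the spread between libraries.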

Additional observations from a re-analysis of the deposited data

Results flagged for a closer look

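The levels of the 5 detected members in the 6 groups gave 30 groups of libraries, and in 5 of them a single library lay far from the others, by a gap to its nearest neighbour over 0.625 of the whole range (Dixon's criterion, which chance passes in about 1 of 20 groups). The gaps were computed on log2 CPM, and the gap of the same library on the CPM scale is given beside each. Serpinb9b had this in Wnt5a + IgG, where replicate 1 was at 54.7 CPM and its gap was 0.734 of the range (0.855 on the CPM scale). For Serpinb6a it was Wnt5a + anti-Ptk7 replicate 1, at 314 CPM with a gap of 0.657 (0.718 on the CPM scale). Serpinb9 had 3 such libraries, namely complete media replicate 3 at 0 CPM (gap 0.780, and 0.461 on the CPM scale), SCM + IgG replicate 4 at 0.932 CPM (gap 0.664 and 0.453) and Wnt5a + IgG replicate 3 at 6.41 CPM (gap 0.632 and 0.728). On the CPM scale the first and the second of these are under the criterion.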

How the results depend on the processing

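In SCM against complete media the same 3 members were called under every alternative run, and 3 with each of the 36 libraries left out. In Wnt5a against complete media the count was 2 to 3 with 1 library left out and 2 with voom, which lost Serpinb1a (0.55, adjusted p = 0.0151, under the fold cutoff). Without the filter on low counts it was 3, with Serpinb1a lost (0.58, adjusted p = 0.0276) and Serpinb6b, which had 0 counts in complete media, called in its place. With the replicate block, 1 member (Serpinb5) was called in QCM against complete media, 1 in SCM against QCM and 1 with anti-Ptk7 in SCM, and over all 15 pairs of groups the block changed 2 further calls, both of Serpinb5, which was higher in Wnt5a + IgG and in Wnt5a + anti-Ptk7 than in SCM + anti-Ptk7 (1.10 and 0.67). DESeq2 called 1 member, Serpinb6a, with anti-Ptk7 in SCM, and with 1 library left out 0 to 1 were called there, Serpinb6a being called without SCM + IgG replicate 3, SCM + anti-Ptk7 replicate 1, Wnt5a + IgG replicate 1 or Wnt5a + anti-Ptk7 replicate 1. The cause of these changes was not tested.

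Values that changed sign were those near 0. With voom, Serpinb9 was at 0.32 in QCM and at −0.011 in the interaction. With 1 library left out, Serpinb9 ranged from −0.33 to 0.14 in QCM and from −0.028 to 0.50 in the interaction, Serpinb1a from −0.13 to 0.16 with anti-Ptk7 in Wnt5a, Serpinb5 from −0.17 to 0.44 in the interaction and Serpinb9b from −0.25 to 0.66 in the interaction. The log2 difference of Serpinb9b with anti-Ptk7 ranged from −3.24 to −2.34 in SCM and from −2.91 to −2.13 in Wnt5a.

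Over all genes, the block raised the count called from 58 to 178 in QCM, from 140 to 496 in SCM against QCM, from 190 to 399 with anti-Ptk7 in SCM and from 137 to 255 in Wnt5a, and called 3 in the interaction in place of 0. DESeq2 called 264 in SCM against QCM and 295 with anti-Ptk7 in SCM. Leaving out all number 1 libraries gave 123 in QCM and 278 in SCM against QCM. With 1 library left out the count ran from 659 (without SCM + IgG replicate 1) to 1035 in SCM, from 35 (without QCM replicate 3) to 250 (without Wnt5a + anti-Ptk7 replicate 1) in SCM against QCM, from 105 (without SCM + IgG replicate 1) to 232 with anti-Ptk7 in SCM, from 81 (without Wnt5a + anti-Ptk7 replicate 5) to 157 in Wnt5a and from 37 (without complete media replicate 4) to 65 in QCM. With voom, 550 genes were higher and 297 lower in SCM, against 768 and 174, 1015 and 562 in Wnt5a, against 1285 and 291, 33 and 6 in QCM, against 55 and 3, and 122 and 48 in SCM against QCM, beside 118 and 22. Over the 36 libraries together Serpinb9 had 1337 counts, Serpinb6b 54, Serpinb8 31 and Serpinb2 0.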
